A study of Mus musculus with 16 samples.

Results

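The genes examined here mark mature fat cells. Of 10 listed adipocyte genes, *Adipoq*, *Plin4*, *Fabp4*, *Cfd*, *Car3* and *Pparg* have a row among the 23609 genes of the gene trap tumor table, and these 6 are the genes described. The other 4, *Plin1*, *Cidec*, *Lep* and *Retn*, had no row that carried their symbol and were not analysed here, so nothing is said of their level. The rule uses gene names and no measured value, but the genes were listed with earlier results of these data known.

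RNA-seq was performed on total RNA of mammary tumors from wildtype x PyMT mice and from gene trap x PyMT mice, 5 tumors of each group being used. All animals carried the MMTV-PyMT transgene, in which the MMTV promoter drives the polyoma middle T antigen in mammary epithelium, and the wildtype animals were littermates. Gene trap animals were heterozygous (*Resf1* +/-) for C57BL/6-Et(EGFP/Cre)16255Rdav, a lentiviral insertion that cuts the *Resf1* transcript short near its 5′ end and makes EGFP joined to cre, and both groups came from a cross of this C57BL/6 line with FVB MMTV-PyMT mice. The gene trap allele is a hypomorph carried in every cell of the animal, fat cells included, while PyMT is aimed at the epithelium. Tumors were taken at the humane endpoint without further treatment, and the age of each animal, the gland of each tumor and which litters were shared are not given in the sources used here.

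White adipocytes store triglyceride in a single large lipid droplet and release fatty acids on demand. They also secrete hormones, the adipokines, and *Pparg* is the nuclear receptor that drives their differentiation. The mammary epithelium grows inside a fat pad, so a mammary tumor can hold fat cells of the gland around it. In such bulk RNA, fewer cells of a type and less RNA per cell cannot be told apart.

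Promoters of the members are shown as a description, and a link between these sequences and the levels of the genes was not tested. RefSeq promoter sequences of build GRCm38.p6, from 250 bases before to 50 bases after the transcription start, were matched for *Adipoq*, *Plin4*, *Cfd* and *Pparg*. *Fabp4* and *Car3* are named only. The first 2 sequences below belong to the pair of members that was most alike over the tumors, *Adipoq* and *Cfd*, and the last to the lipid droplet gene *Plin4*. Capitals mark CCAAT on either strand, which reads ATTGG where it lies on the other strand.
*Adipoq* chr16:23146286-23146585, plus strand: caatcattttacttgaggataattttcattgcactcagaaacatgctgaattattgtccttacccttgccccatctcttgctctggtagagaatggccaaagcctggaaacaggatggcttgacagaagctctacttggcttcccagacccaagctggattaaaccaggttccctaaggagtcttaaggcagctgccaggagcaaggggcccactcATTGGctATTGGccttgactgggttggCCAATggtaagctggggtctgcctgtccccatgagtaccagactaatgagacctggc
*Cfd* chr10:79890603-79890902, plus strand: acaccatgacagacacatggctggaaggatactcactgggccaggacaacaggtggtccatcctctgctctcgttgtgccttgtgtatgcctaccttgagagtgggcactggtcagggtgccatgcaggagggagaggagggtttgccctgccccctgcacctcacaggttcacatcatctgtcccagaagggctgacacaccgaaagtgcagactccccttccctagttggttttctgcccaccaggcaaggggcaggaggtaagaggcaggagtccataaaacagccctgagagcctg
*Plin4* chr17:56109733-56110032, minus strand: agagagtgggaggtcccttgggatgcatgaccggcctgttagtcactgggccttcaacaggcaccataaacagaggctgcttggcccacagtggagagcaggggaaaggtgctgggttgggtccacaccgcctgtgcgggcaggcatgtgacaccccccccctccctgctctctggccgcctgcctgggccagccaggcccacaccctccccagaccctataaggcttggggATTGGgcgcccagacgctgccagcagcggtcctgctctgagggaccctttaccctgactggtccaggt

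The strings of letters looked for on both strands were CCAAT, the TATA box as TATAAA, the palindrome TTGCGCAA, the nuclear receptor site AGGTCA, and this site repeated with 1 base between, which contains the single one. CCAAT was present in 37.41% of all 32851 promoters of this length, the TATA box in 13.62%, the receptor site in 16.26%, the palindrome in 0.18% and the repeat in 0.04%. The *Adipoq* promoter held CCAAT at 3 places, beginning 34, 27 and 7 bases before the start, and the *Plin4* promoter held it 18 bases before the start. None of these strings was found in this window of *Cfd*. Of the 3 annotated starts of *Pparg*, the promoter at chr6:115362099-115362398 held CCAAT, the TATA box and the receptor site, that at chr6:115421816-115422115 held CCAAT only, and that at chr6:115360894-115361193 held the receptor site only. These matches describe letters and no binding was measured.

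The values are estimated counts per gene that the authors had normalized by the median ratio method, called normalized values below. Their sum over all genes lay between 32151583 and 37121386 in wildtype tumors and between 31995078 and 42153593 in gene trap tumors, and the sequencing depth behind them is unknown. For tests, 1 was added and log2 was taken, and limma was fitted to the 21034 genes with a mean of at least 10, among them all 6 members. Fold changes on this scale understate those of genes with low values. *Resf1* itself differed by -0.22 on the log2 scale (standard error 0.09, limma unadjusted p = 0.0313, Benjamini-Hochberg adjusted p = 0.9997; exact permutation p = 0.0635), and values of 3517 to 4487 in wildtype tumors and 3066 to 4029 in gene trap tumors overlapped. On the first principal component, which held 31.1% of the variance, gene trap replicate 2 lay at 91.8 and the other 9 tumors between -18.6 and -4.78, so values without that tumor are given below. The luminal epithelial marker *Epcam* lay between 19190 and 25278 in all 10 tumors, and skeletal muscle markers were present in all of them as well.

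Between the groups, no adipocyte gene passed the test for a difference, and each difference was smaller than the spread between tumors of a group. The mean log2 value of all 6 was lower in gene trap tumors, with log2 fold changes from -0.64 for *Adipoq* to -0.24 for *Pparg*, and 48.6% of all tested genes were also lower. None of the 6 had an adjusted p under 0.05 in limma, nor did any other gene (0% of 21034). At an unadjusted p under 0.05 the count of members was also 0, against 479 genes in all, of which 201 were lower (0.956% of those tested) and 278 higher (1.32%). The median log2 fold change was -0.44 over the 6 members and 0.00 over all tested genes. The 6 are not independent of each other, since they varied together within each group.

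*Adipoq* and *Cfd* are secreted proteins. *Adipoq* (ENSMUSG00000022878) encodes adiponectin, the adipokine made almost only by fat cells. In wildtype replicates 1 to 5 its normalized value was 147, 152, 573, 215 and 443, and in gene trap replicates 1 to 5 it was 286, 232, 162, 242 and 50.8. Wildtype replicates 3 and 5 were above every gene trap tumor and gene trap replicate 5 was below every wildtype tumor, while the other 7 tumors overlapped. Means were 306 ± 192 and 195 ± 91.8 (SD, n = 5 each). On the log2 scale *Adipoq* differed by -0.64 (standard error 0.50, 95% interval -1.72 to 0.45, limma unadjusted p = 0.226), and an exact two-sided permutation test over the 252 arrangements gave p = 0.349, where the smallest p these groups allow is 0.00794. The interval runs from 0.304-fold to 1.36-fold. *Adipoq* was the most variable member, with an 11.3-fold range over the 10 tumors.

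*Cfd* (ENSMUSG00000061780) encodes complement factor D, or adipsin, a serine protease of the alternative complement pathway that fat cells secrete. Its value was 820, 852, 3359, 1213 and 2506 in wildtype replicates 1 to 5 and 1852, 1508, 1056, 1753 and 419 in gene trap replicates 1 to 5. The tumors stood in exactly the order they had for *Adipoq*, and the groups overlapped in the same way. Means were 1750 ± 1131 and 1318 ± 589 (SD, n = 5 each), and the log2 fold change between groups was -0.34 (standard error 0.47, 95% interval -1.37 to 0.68, limma unadjusted p = 0.478; exact permutation p = 0.556). This direction rested on 1 tumor: without gene trap replicate 5 the log2 fold change was 0.026.

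*Plin4* (ENSMUSG00000002831) encodes perilipin 4, a protein that coats small and newly formed lipid droplets. Wildtype replicates 1 to 5 had values of 638, 871, 2839, 1326 and 2481, and gene trap replicates 1 to 5 had 1401, 1240, 836, 1157 and 584. Gene trap replicate 5 was again the lowest, although here wildtype replicate 1 lay close above it. The means were 1631 ± 979 and 1044 ± 329 (SD, n = 5 each), and the log2 fold change was -0.48 (standard error 0.39, 95% interval -1.33 to 0.37, limma unadjusted p = 0.243; exact permutation p = 0.317).

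*Fabp4* (ENSMUSG00000062515) encodes the fatty acid binding protein that carries fatty acids through the adipocyte cytoplasm, and it is also made by macrophages and by the endothelium of small vessels. Values were 945, 1230, 3555, 1525 and 3403 in wildtype replicates 1 to 5 and 1849, 2675, 1123, 1465 and 500 in gene trap replicates 1 to 5. Gene trap replicate 2 had rank 3 here, higher than for any other member. Means were 2132 ± 1248 and 1522 ± 813 (SD, n = 5 each), and the log2 fold change between groups was -0.48 (standard error 0.46, 95% interval -1.48 to 0.53, limma unadjusted p = 0.320; exact permutation p = 0.429). Without gene trap replicate 2 the log2 fold change was -0.73 (limma unadjusted p = 0.135).

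*Car3* (ENSMUSG00000027559) encodes carbonic anhydrase 3, a cytosolic enzyme abundant in fat and in slow skeletal muscle. It was measured at 793, 923, 3743, 1541 and 3715 in wildtype replicates 1 to 5 and at 2104, 1183, 1232, 1842 and 697 in gene trap replicates 1 to 5. Wildtype replicates 3 and 5 were almost equal, and both were above the highest gene trap tumor. The means were 2143 ± 1475 and 1412 ± 561 (SD, n = 5 each), the log2 fold change was -0.40 (standard error 0.45, 95% interval -1.39 to 0.59, limma unadjusted p = 0.398) and the exact permutation p was 0.484.

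*Pparg* (ENSMUSG00000000440) encodes the nuclear receptor PPAR gamma, the transcription factor required for fat cell formation, which other cells of a tumor also make. Its values of 88.7, 79.0, 142, 75.6 and 156 in wildtype replicates 1 to 5 and of 130, 86.8, 82.7, 90.1 and 60.7 in gene trap replicates 1 to 5 spanned only 2.58-fold. Wildtype replicates 5 and 3 were again the top tumors, here in that order, and gene trap replicate 5 the lowest, but wildtype replicate 1 had rank 5, against rank 9 of 10 for the other 5 genes. Means were 108 ± 38.0 and 90.1 ± 25.2 (SD, n = 5 each), and the log2 fold change between groups was -0.24 (standard error 0.26, 95% interval -0.79 to 0.32, limma unadjusted p = 0.368; exact permutation p = 0.437).

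**Figure D1:**
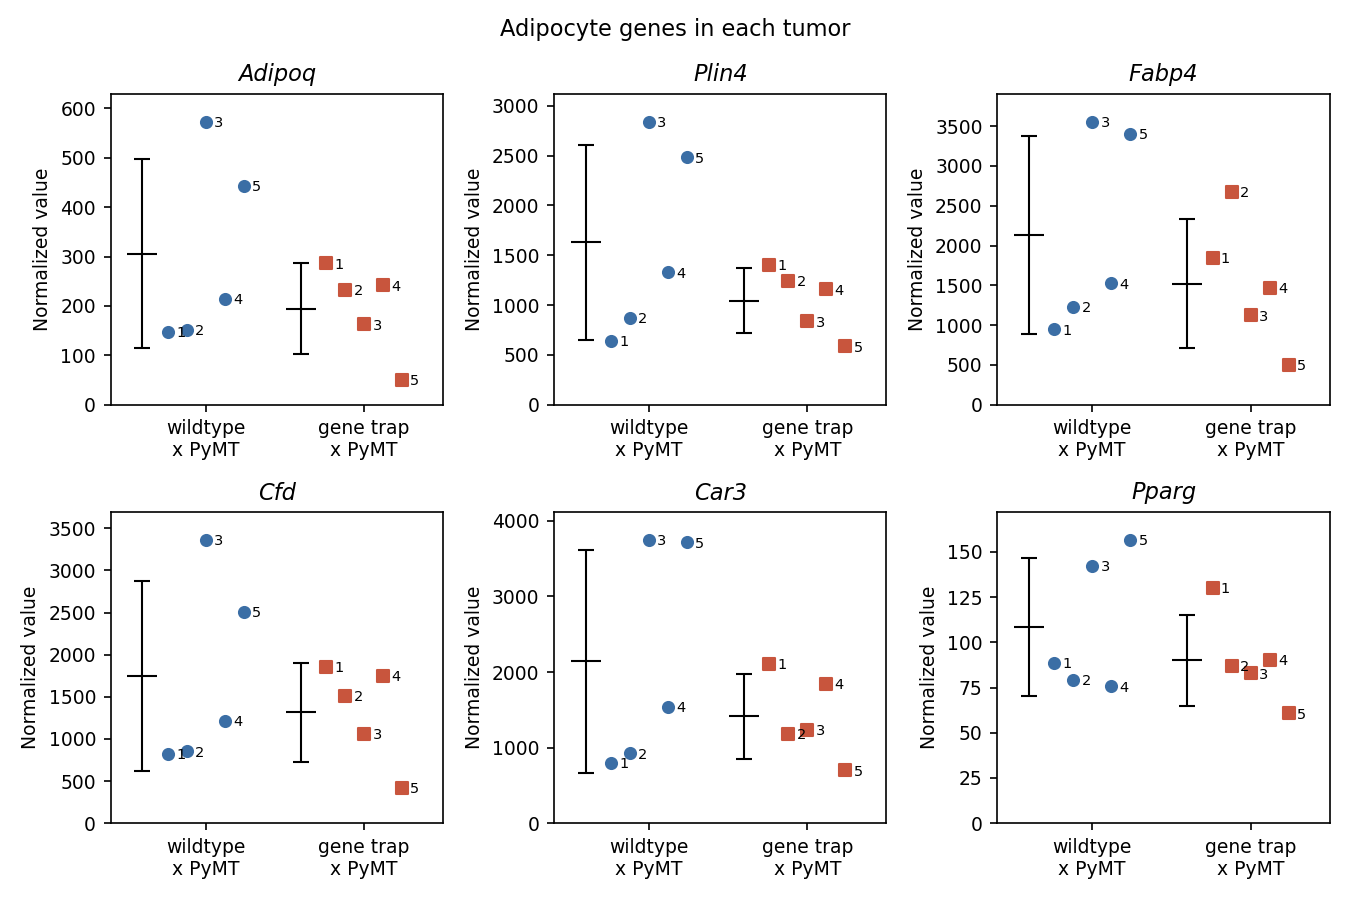
Normalized value (vertical axis, linear from 0) of each adipocyte gene in every tumor, with the replicate number beside each point, circles for wildtype and squares for gene trap; the bar to the left of each group is its mean ± SD (n = 5). Wildtype replicates 3 and 5 were the highest tumors for all 6 genes and gene trap replicate 5 the lowest, with the other tumors overlapping.

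In every one of the 6 genes, 2 wildtype tumors were above the highest gene trap tumor and 1 gene trap tumor was below the lowest wildtype tumor. Gene trap replicate 1 had rank 3 or 4 throughout. Leaving out gene trap replicate 5 moved the median log2 fold change of the members from -0.44 to -0.15, and leaving out wildtype replicate 1 moved it to -0.70. Without gene trap replicate 2, the tumor apart on the first component, it was -0.50. Over all alternatives tried, the limma unadjusted p of the members lay between 0.0535 and 0.950.

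**Figure D2:**
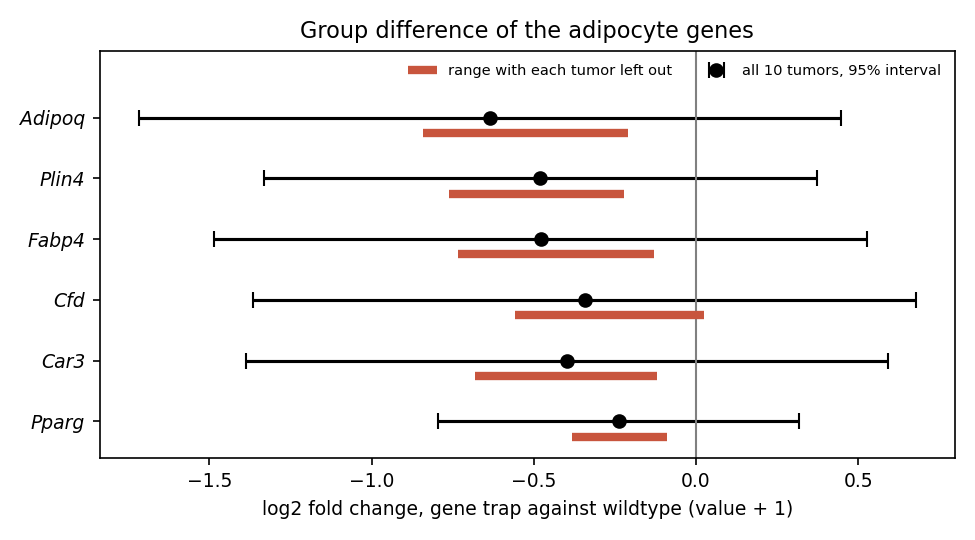
Log2 fold change of each adipocyte gene, gene trap against wildtype, on the log2(value + 1) scale (horizontal axis), with points and black bars for the estimate over 10 tumors and its 95% interval, and thick bars for the range of estimates over fits that each omit a single tumor. Every interval crosses 0, and the range for *Cfd* reaches 0.026.

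The spread between tumors of 1 group was wide for most of these genes. The pooled within-group SD of the log2 value was 0.95 for *Adipoq*, 0.90 for *Cfd*, 0.89 for *Fabp4*, 0.88 for *Car3* and 0.75 for *Plin4*, where the median over all tested genes was 0.25. These 5 were more variable than 95.1% to 98.0% of tested genes. *Pparg*, with an SD of 0.44, was above 77.4% of them.

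Levels can be compared between genes per length only. Divided by the length in kb of the longest principal transcript in GENCODE, the mean over the 10 tumors was 2039 ± 1165 (SD) for *Fabp4*, 1664 ± 955 for *Cfd*, 1059 ± 667 for *Car3*, 232 ± 131 for *Plin4*, 194 ± 119 for *Adipoq* and 56.2 ± 18.0 for *Pparg*. The means of *Fabp4* and *Cfd* lay within the spread between tumors of each other, as did those of *Plin4* and *Adipoq*. Both genes of a pair were measured in the same tumors and varied together. This spread therefore does not say whether they differed within a tumor, which was not tested.

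The members varied together over the 10 tumors. Among the 15 pairs, Pearson's r of the log2 values lay between 0.82 and 0.98 with a median of 0.93, and Spearman's rho between 0.70 and 1.0. For *Adipoq* and *Cfd*, the closest pair, r was 0.98 and rho 1.0, with a permutation p of 1e-05 for each, the smallest that 100000 permutations can give (Benjamini-Hochberg adjusted over the 15 pairs, p = 0.0001 for r and 0.00015 for rho), and r was 0.97 without the 2 tumors farthest from the median of *Adipoq*. The loosest pair was *Fabp4* and *Pparg*, with r of 0.82 (permutation p = 0.00307, adjusted p = 0.00307) and rho of 0.70 (permutation p = 0.031, adjusted p = 0.0312), and r was 0.66 without the 2 tumors farthest from the median. Removing the 2 farthest tumors left r between 0.60, for *Plin4* and *Pparg*, and 0.97. The correlations join both groups of tumors, and with values centred within each group r of *Adipoq* and *Cfd* was 0.99.

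The ratio of *Cfd*, *Fabp4*, *Plin4* or *Car3* to *Adipoq* within a tumor spanned a narrower range than the level of either gene, and that of *Pparg* did not. *Cfd* was 5.59 to 8.25 times *Adipoq* in normalized value, a 1.48-fold spread over tumors in which *Adipoq* itself spanned 11.3-fold. The ratio to *Adipoq* ran from 6.06 to 11.5 for *Fabp4*, from 4.35 to 11.5 for *Plin4* and from 5.10 to 13.7 for *Car3*. For *Pparg* it ran from 0.248 in wildtype replicate 3 to 1.19 in gene trap replicate 5, a 4.81-fold spread against 2.58-fold for *Pparg* itself, so the ratio was lowest in a tumor with high values of the other members and highest in the tumor where they were lowest. Centred within groups, r with the mean of the other 5 members was 0.98 for *Cfd*, 0.97 for *Adipoq*, 0.95 for *Plin4*, 0.94 for *Car3*, 0.92 for *Fabp4* and 0.88 for *Pparg*.

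A profile of the 6 genes was formed as the mean over members of the z score of the log2 value, centred within each group. Over wildtype replicates 1 to 5 it was -1.09, -0.91, 1.28, -0.39 and 1.12, and over gene trap replicates 1 to 5 it was 0.85, 0.40, -0.19, 0.41 and -1.46. Genes outside the list were ranked by r with this profile over the 10 tumors, as a description without a test. Of all 21034 tested genes, 196 (0.932%) had an r of at least 0.8 and 39 of at least 0.9, the members included. The median r over all tested genes was -0.02.

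The 10 most alike were *Lpl* (r = 0.99), *Slc1a5* (0.99), *Adhfe1* (0.97), *Aqp7* (0.97), *Cd36* (0.97), *Aoc3* (0.96), *Pcx* (0.95), *Tppp3* (0.94), *Trarg1* (0.94) and *Lipe* (0.93). Several have known roles in fat. *Lpl* is the lipoprotein lipase that frees fatty acids from circulating triglyceride, *Cd36* takes them up, *Lipe* is hormone-sensitive lipase, *Aqp7* lets out glycerol and *Trarg1* takes part in glucose transporter traffic. *Pcx* is pyruvate carboxylase, and *Slc1a5* is a glutamine transporter made by many cell types. Without the 2 tumors farthest from the median of the profile, gene trap replicate 5 and wildtype replicate 1, r lay between 0.87 for *Lipe* and 0.98 for *Lpl*, *Slc1a5* and *Trarg1*.

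The amplitude differed among these genes. *Lpl* lay at 807, 1016, 2651, 1296 and 2731 in wildtype replicates 1 to 5 and at 2043, 1302, 1218, 1541 and 576 in gene trap replicates 1 to 5. *Slc1a5* had the same 3 highest tumors and the same lowest tumor as *Adipoq* over a narrower range, from 604 to 899 in wildtype and from 538 to 780 in gene trap tumors. *Cd36* lay between 376 and 1419 in wildtype and between 266 and 752 in gene trap tumors, and its log2 fold change was -0.61 (limma unadjusted p = 0.138). *Aqp7* was low, at 8.64 to 33.5 and 3.65 to 21.7.

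**Figure D3:**
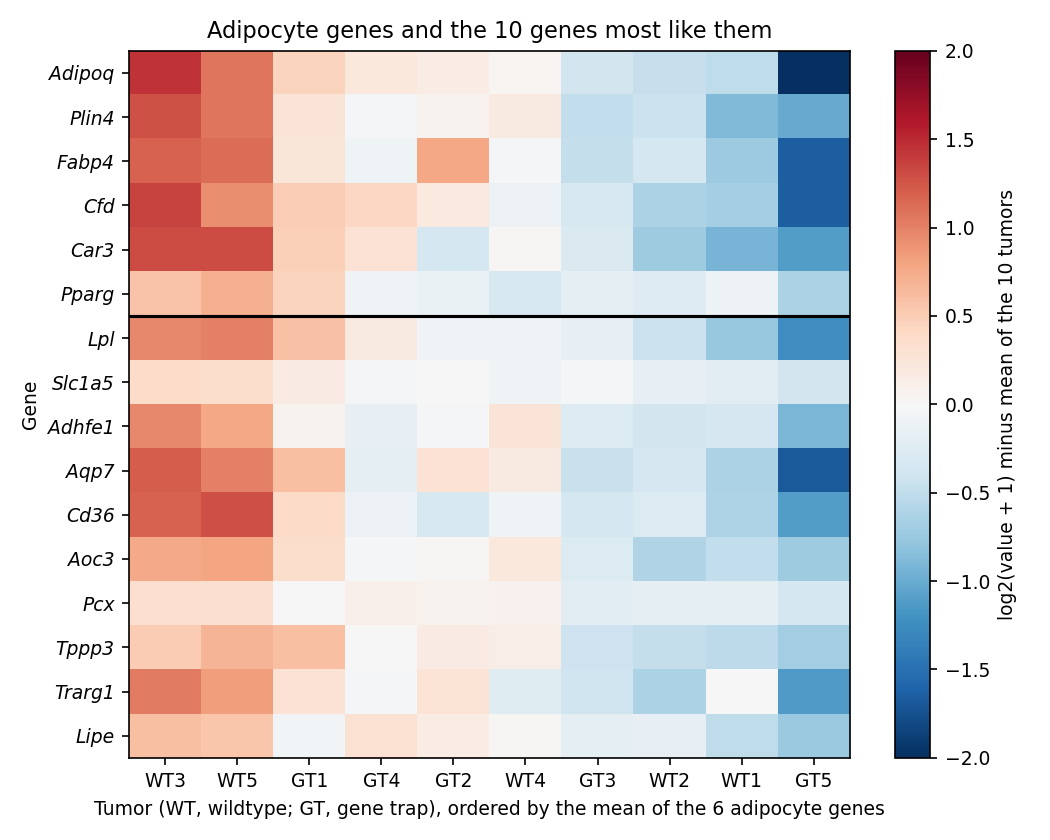
Log2(value + 1) minus its mean over the 10 tumors (color scale, -2 to 2) for the 6 adipocyte genes above the line and the 10 genes most like their profile below it, with tumors (columns) ordered by the mean of the 6 genes. Wildtype replicates 3 and 5 are at the high end and gene trap replicate 5 at the low end in both blocks, with paler colors for *Slc1a5* and *Pcx*; the lower genes were chosen for this likeness.

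Single members had partly different nearest genes. *Adipoq* and *Cfd* were each other's nearest gene, followed by *Aqp7* and *Lpl*. *Car3* was nearest to *Cd36* (r = 0.98), then *Lpl* and *Plin4*. *Plin4* was nearest to *Adhfe1*, *Retnla* and *Aoc3*, and *Fabp4* to *Aqp7*, *Gpd1*, the glycerol-3-phosphate dehydrogenase, and *Orm1*. *Pparg* was nearest to *Olfml1* (r = 0.98), the activin receptor *Acvr1c* and *Slamf8*. None of the nearest 3 of *Pparg*, and none of those of *Plin4*, was among the nearest 3 of another member.

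Lists of other genes of fat were then read in the same fit. In limma, 0 genes of these lists reached an adjusted p of 0.05, and the counts of genes with a p below are at an unadjusted p under 0.05. The counts of lower and higher genes stand beside 48.6% of all tested genes that were lower. Genes of a list that varied together are not independent, and the lists were not read without gene trap replicate 5. For lipolysis and lipid droplets, 12 of 14 genes had a row, 9 were lower and 3 higher in gene trap tumors, and the median log2 fold change was -0.10. Only *Abhd5*, the co-activator of adipose triglyceride lipase, had an unadjusted p under 0.05. It lay at 5747, 7440, 6588, 5772 and 7353 in wildtype replicates 1 to 5 and at 5672, 5189, 5386, 6617 and 5248 in gene trap replicates 1 to 5, a difference of -0.22 on the log2 scale (standard error 0.10, limma unadjusted p = 0.0427, adjusted p = 0.9997; exact permutation p = 0.0635). It did not track the adipocyte genes closely (r = 0.40 with the profile). *Plin2*, which coats droplets in many cell types and had the highest values of the list, was at 8389 ± 1596 and 7919 ± 1127 (SD, n = 5 each), and its r was 0.28.

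Against a median r with the profile of 0.37 for the lipolysis list, fatty acid uptake genes were closer to the members. All 12 had a row, 11 were lower and 1 higher, 0 had an unadjusted p under 0.05, the median log2 fold change was -0.20 and the median r with the profile was 0.71, with 6 of the 12 at 0.8 or above. *Acsl1*, the long-chain acyl-CoA synthetase with the highest values, had a log2 fold change of -0.18 (limma unadjusted p = 0.268), and *Slc27a4*, a fatty acid transporter with the smallest p, one of -0.14 (limma unadjusted p = 0.112). Of the triglyceride synthesis genes 14 of 15 had a row (*Pck1* had none), 12 were lower and 2 higher, 0 had an unadjusted p under 0.05 and the median was -0.12. Their median r with the profile, 0.70, was near that of the uptake genes, with 3 of the 14 at 0.8 or above. *Scd1*, the stearoyl-CoA desaturase that mammary epithelium also makes, had the highest values, at 34328 ± 8942 and 27199 ± 5960 (SD, n = 5 each), with a log2 fold change of -0.32 (limma unadjusted p = 0.171), and *Lpin1*, a phosphatidate phosphatase, one of -0.15 (limma unadjusted p = 0.169).

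The transcription factors of fat cell differentiation divided evenly, 6 lower and 6 higher of 12, with a median log2 fold change of 0.02 and a median r of 0.25. *Prdm16*, a regulator of brown and beige fat, was the single gene with an unadjusted p under 0.05, and its mean was the higher in gene trap tumors. It lay at 122, 98.6, 98.4, 59.2 and 66.8 in wildtype replicates 1 to 5 and at 142, 173, 167, 72.6 and 195 in gene trap replicates 1 to 5. Of the 5 gene trap tumors, 4 were above every wildtype tumor, a difference of 0.72 on the log2 scale (standard error 0.28, limma unadjusted p = 0.0247, adjusted p = 0.9997; exact permutation p = 0.0476). Its r with the profile was -0.41. *Srebf1*, the lipid synthesis regulator with the highest values, ran against the profile (r = -0.71), with a log2 fold change of 0.14 (limma unadjusted p = 0.364).

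Of 10 genes of thermogenic fat, 6 had a row and *Ucp1*, *Elovl3*, *Adrb3* and *Ucp3* had none. Of these 6, 4 were lower and 2 higher, none had an unadjusted p under 0.05 and the median log2 fold change was -0.17. Their median r with the profile was 0.67, against 0.13 for the hormone response genes and 0.42 for the progenitor genes described next. *Dio2*, the deiodinase that activates thyroid hormone, was at 267 ± 131 and 250 ± 47.1 (SD, n = 5 each), and *Otop1* had a log2 fold change of -0.34 (limma unadjusted p = 0.257). Among 16 genes of hormone response, 11 were lower and 5 higher, none had an unadjusted p under 0.05 and the median was -0.14. *Pde3b*, the phosphodiesterase through which insulin restrains lipolysis, had a log2 fold change of -0.32 (limma unadjusted p = 0.142), and the adiponectin receptor *Adipor1* one of -0.11 (limma unadjusted p = 0.200). Of the progenitor genes of fat 7 were tested, with a median log2 fold change of 0.05 and none with an unadjusted p under 0.05, and 1 estimate was below 0 and 6 were above it, each within its error of 0. The list summed to 8208 in gene trap replicate 1 and to at most 5939 in its group otherwise, while wildtype replicate 5 was at 7859. *Pi16* and *Pdgfra* had log2 fold changes of 0.18 and 0.08 (limma unadjusted p = 0.511 and 0.696).

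Without gene trap replicate 2, a check chosen after the data were seen, the lipolysis list had 11 lower and 1 higher, and neither *Abhd5* nor *Prdm16* had an unadjusted p under 0.05. *Rbp4* of the hormone response list then had one. In the other fat lists the medians lay between -0.26 and 0.10. Of the cell type lists below, the endothelial one went from 8 lower and 2 higher, with a median of -0.07, to 3 lower and 7 higher, with a median of 0.03.

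Markers of other cell types were summed in each tumor to show what else varied. The sum of the 6 adipocyte genes was 14211 in wildtype replicate 3, 12704 in wildtype replicate 5 and 2311 in gene trap replicate 5, and lay between 3432 and 7624 in the other 7 tumors. Skeletal muscle markers (7 of 10 with a row, without *Myh4*, *Myh1* and *Pvalb*) summed to 877 to 14039 in wildtype and 2289 to 6375 in gene trap tumors. Their highest sum, 14039, was in wildtype replicate 5, which was also high in the adipocyte genes, whereas wildtype replicate 3 was at 3556. Macrophage markers (10 of 10) summed to 13777 to 23669 and 15054 to 21366, and wildtype replicates 5 and 3 were again the top tumors. Fibroblast markers (10 of 10) summed to 45710 to 97889 and 59093 to 135879, with gene trap replicate 1 the highest, and *Dpt*, dermatopontin, was the fibroblast marker most like the profile (r = 0.84).

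Endothelial markers (10 of 10) summed to 3520 to 6378 in wildtype and 3525 to 5908 in gene trap tumors, luminal epithelial markers (10 of 10) to 118527 to 152669 and 119718 to 150218, and lymphocyte markers (7 with a row) to 1218 to 2276 and 1105 to 3304. None of these sums separated the groups. The median r of single markers with the profile was 0.68 for macrophages, 0.60 for fibroblasts, 0.58 for skeletal muscle, 0.18 for endothelium, 0.04 for lymphocytes and -0.15 for luminal epithelium. Over all tested genes this median was -0.02. None of the markers of these 6 lists had an unadjusted p under 0.05, and their median log2 fold changes lay between -0.08 and 0.09. The smallest p of each list was that of *Fcgr1* (limma unadjusted p = 0.151), *Cldn5* (0.323), *Col1a2* (0.346), *Cldn7* (0.358), *Cd3e* (0.456) and *Tnni2* (0.809). The markers with the highest values, *Lyz2*, *Pecam1*, *Col3a1*, *Ehf*, *Ptprc* and *Acta1*, had log2 fold changes between -0.13 and 0.11. The part of these cell types in the differences among tumors was not tested.

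**Figure D4:**
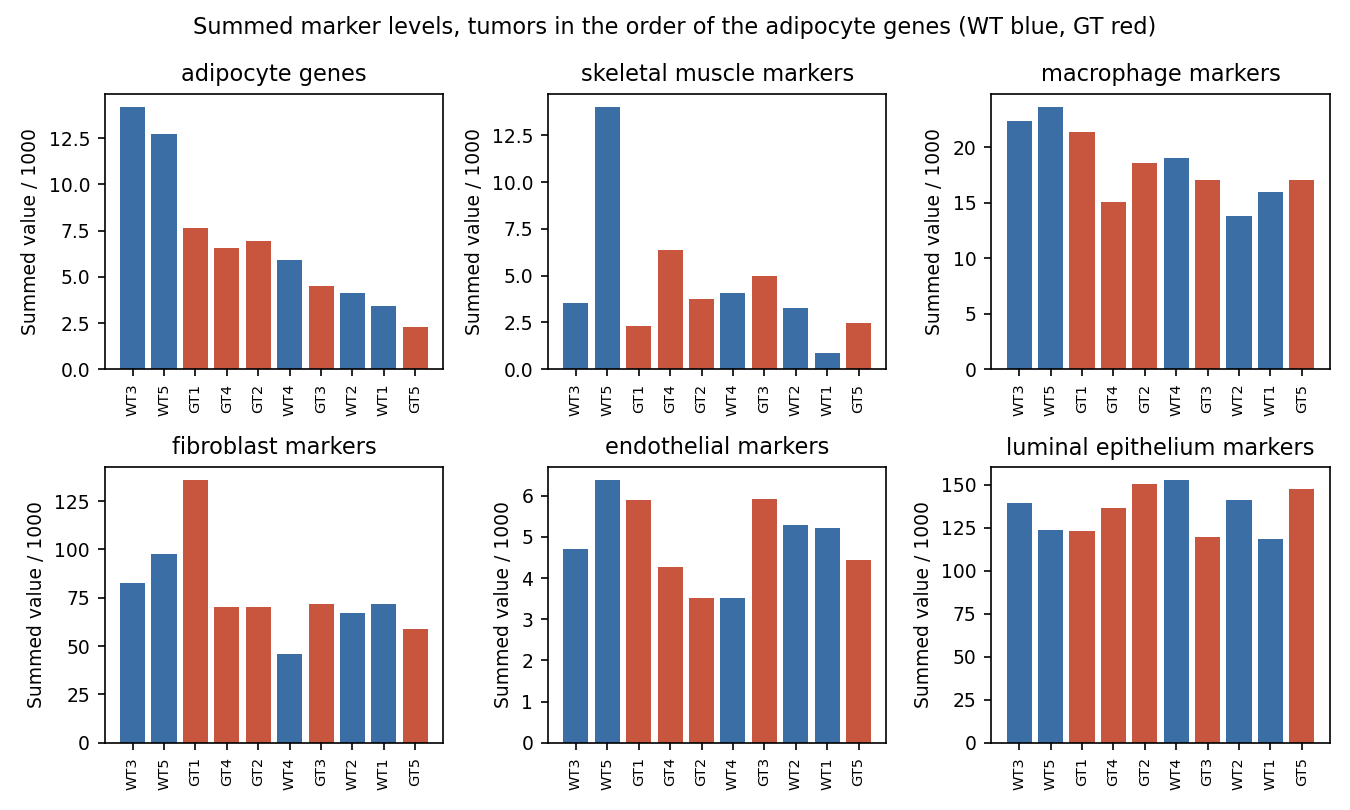
Summed normalized values (vertical axes from 0, divided by the factor on the axis label) of the 6 adipocyte genes and of 5 marker lists in each tumor, with tumors ordered by the mean of the adipocyte genes, blue bars for wildtype (WT) and red for gene trap (GT). Wildtype replicates 3 and 5 lead both the adipocyte and the macrophage panels, wildtype replicate 5 alone leads the muscle panel and gene trap replicate 1 the fibroblast panel.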

How the data were processed

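Total RNA of mammary tumors from both genotypes was sequenced (TruSeq Stranded Total RNA). The labels name 16 tumors, 8 per group. Of 16 columns in the table, 10 matched a tumor by name, and the 6 others were not used, which left 5 tumors per group. The numbers 1 to 5 mark different tumors, each treated here as a separate animal. The authors deposited a normalized signal per gene, estimated counts scaled by the median ratio method. The submitters' processing notes name Partek, STAR 2.7.8a, DESeq2 and build mm39, and the annotation is not given in the sources used here. The values hold no zeros and after centring on geometric means the columns' median ratios lay between 1.0052 and 1.0062. Depth could not be recovered, so no counting interval is given.

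Ensembl IDs were matched to symbols for 22899 (97.0%) of 23609 genes. Genes with a mean of at least 10 were tested with limma 3.58.1 (R 4.3.3) on log2(value + 1), with a variance trend, the group as factor and Benjamini-Hochberg adjustment over 21034 genes. The calculation was tested on simulated data, with independent genes and larger changes than the members showed. That test does not measure how well differences of the members' size would be found. Single genes were also compared by exact two-sided permutation of the 10 tumors. Transcript lengths came from GENCODE mouse release 21 and promoters from RefSeq (GRCm38.p6), and no position in the files' build is given. Each tumor was treated as a single sample of a separate animal, so p-values cover the spread between these tumors.

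The members and lists were chosen with earlier results of these data known. Genes named are the members, *Resf1*, the gene with the smallest p and that with the highest mean of each list, the 10 genes most like the profile, and the 3 most like each member. *Epcam*, *Dpt* and *Rbp4* and the genes of the other observations were named after their values were seen. Alternatives were other filters, pseudocounts and scalings, weights per tumor, no variance trend, a replicate block, and fits without each tumor. Figures were drawn with matplotlib 3.10.9 (Python 3.11.15).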

Additional observations from a re-analysis of the deposited data

Results flagged for a closer look

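In 3 sums of marker genes, 1 tumor lay far from the other 4 of its group by Dixon's criterion. The 8 adipocyte progenitor genes with a row summed to 8208 in gene trap replicate 1 and to between 5165 and 5939 in the other gene trap tumors. Wildtype tumors lay between 4398 and 7859 in this sum, so that tumor was less apart from all 10 than from its group. The 7 skeletal muscle markers summed to 14039 in wildtype replicate 5 and to between 877 and 4071 in the other wildtype tumors. The 10 fibroblast markers summed to 135879 in gene trap replicate 1 and to between 59093 and 71928 in the other gene trap tumors. None of the 6 adipocyte genes met the criterion in either group. The criterion looks for 1 tumor alone. It could not flag tumors that are high together, as wildtype replicates 3 and 5 were in all 6 genes. Of 44 groups of 5 tumors examined, chance is expected to give about 2.2 such cases.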

How the results depend on the processing

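The fit was repeated under 19 alternatives, 10 of which left out 1 tumor each. No gene reached an adjusted p under 0.05 in limma in any of them. The count at an unadjusted p under 0.05 was 479 and lay between 308 and 692 with a tumor left out and between 305 (columns scaled to equal totals) and 580 (weights per tumor) otherwise. The members' median log2 fold change lay between -0.70 and -0.15 with a tumor left out and between -0.57 and -0.44 otherwise. Of the members, *Cfd* changed direction once, to 0.026 (standard error 0.40, limma unadjusted p = 0.950) without gene trap replicate 5, its other such values reaching down to -0.56, and the cause was not tested. With a tumor left out, the log2 fold change lay between -0.84 and -0.21 for *Adipoq*, -0.76 and -0.22 for *Plin4*, -0.73 and -0.13 for *Fabp4*, -0.68 and -0.12 for *Car3*, and -0.38 and -0.09 for *Pparg*. That of *Resf1* lay between -0.28 and -0.17 (unadjusted p from 0.0100 to 0.0781). The median r among members lay between 0.90 and 0.94 with a tumor left out, and the lowest r between 0.75 and 0.86, a check added after the data were seen. The 2 groups share replicate numbers but not animals, and deviations of same-numbered tumors correlated between -0.156 and 0.149, with 1 of 5 wildtype tumors nearest to its own number. With the replicate block, 0 genes were called, 426 had an unadjusted p under 0.05, the members' median was -0.44 and *Resf1* was at -0.22. Wide spread between tumors limits these comparisons, since the 95% interval for *Adipoq* runs from -1.72 to 0.45.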

Other observations

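Some genes ran opposite to the adipocyte profile. The 5 with the most negative r over the 10 tumors, centred within each group, were *Nabp1* (r = -0.95), *Mpp2* (-0.94), *Rabep1* (-0.94), *Lpin2* (-0.94) and *Cftr* (-0.93), and without the 2 tumors farthest from the median of the profile r lay between -0.92 and -0.88. *Cftr*, the chloride channel of secretory epithelia, lay at 32, 46.2, 15.6, 23.4 and 18.4 in wildtype replicates 1 to 5 and at 21.6, 24.3, 35.0, 22.9 and 60.2 in gene trap replicates 1 to 5. *Lpin2*, a phosphatidate phosphatase of the same family as *Lpin1*, lay between 854 and 1096 in wildtype and between 1006 and 1283 in gene trap tumors. All 5 had their highest value in gene trap replicate 5, the tumor lowest in the 6 adipocyte genes. They were chosen by this correlation, their group differences were not past the threshold (limma unadjusted p from 0.104 for *Lpin2* to 0.844 for *Rabep1*), and no role in fat or in these tumors was tested.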
